A study of Mus musculus with 6 samples.

Results

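The SR and hnRNP splicing regulators of hindlimb muscle were taken as all genes of the deposited table with a symbol of the form *Srsf* plus a number or *Hnrnp* plus a letter, pseudogenes left out, together with 8 regulators tied to muscle splicing, *Mbnl1*, *Mbnl2*, *Celf1*, *Celf2*, *Rbfox1*, *Rbfox2*, *Rbm20* and *Rbm24*. The rule gave 37 of 37979 genes, with 11 SR genes, 18 hnRNP genes and the 8 MBNL, CELF, RBFOX and RBM genes. They were measured by RNA-seq in gastrocnemius (GAS) muscles of untreated male mice aged 20 weeks, 3 wildtype (WT) and 3 Kvβ2 knockout (KO), with 1 library per mouse. Both genotypes came from crosses of mice heterozygous for the Kvβ2 null allele, and the KO mice lacked Kvβ2, an auxiliary subunit of voltage-gated potassium channels, in the whole body. The libraries of each genotype carry the numbers 1, 7 and 8.

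SR proteins bind exonic enhancers in pre-mRNA through RNA recognition motifs and recruit the spliceosome through a domain rich in arginine and serine, so that they mostly favour exon inclusion, while many hnRNP proteins bind silencers and oppose them. Most SR genes and several hnRNP genes limit their own expression by splicing in a poison exon, which sends the transcript to nonsense-mediated decay. In striated muscle, MBNL and CELF proteins act on many of the same exons in opposite directions during the switch from fetal to adult isoforms, RBFOX proteins bind intronic UGCAUG elements, and RBM20 and RBM24 govern exons of titin and other sarcomere genes.

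None of the 37 genes was called different between KO and WT, and most had a lower level in the KO muscles. Levels are given in FPKM, a fragment count divided by the transcript's length and by the library's total, and differences as log2 fold changes of KO against WT on log2(FPKM + 0.1), with their standard error (SE). Calls were made with limma at a Benjamini-Hochberg adjusted p below 0.05 over 12334 genes, those averaging 0.5 FPKM or more. This filter was passed by 36 of the 37 genes, and 0 of the 36 were called, with 0.324% of all tested genes called in either direction, 31 higher and 9 lower. The 36 were above 0 FPKM in every library. With the fit limited to the 12092 genes of that kind, 1 gene was called higher and 0 lower. In the fit over 12334 genes the lowest adjusted p of the 36 was 0.0911 (limma), for *Hnrnph1*. At an unadjusted p under 0.05, 10 of the 36 (27.8%) were lower in KO, against 10.9% of all tested genes, and 0 were higher, against 15.3%. The log2 fold change was negative for 30 and positive for 6 of the 36. It ranged from -0.65 to 0.30 with a median of -0.20, and the median of all tested genes was 0.01. Every KO library lay under every WT library for 14 of the 36 genes (38.9%), against 16.2% of all tested genes, and above for 1, *Srsf4*, against 18.3%. The count of 10 fell to 5 without WT replicate 7, 5 without KO replicate 8 and 6 without WT replicate 1. Genes of the whole table that were lower at that p also fell, from 1339 to 763, 1038 and 1060 in the same order. Part of the fall was therefore shared by the whole table. *Srsf10* and *Hnrnph1* were the members that reached an unadjusted p under 0.05 whichever library was left out. The count of 10 became 16 with the libraries scaled to the same median. There 1667 genes of the whole table were higher and 1785 lower, in place of 1891 and 1339.

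**Figure D1:**
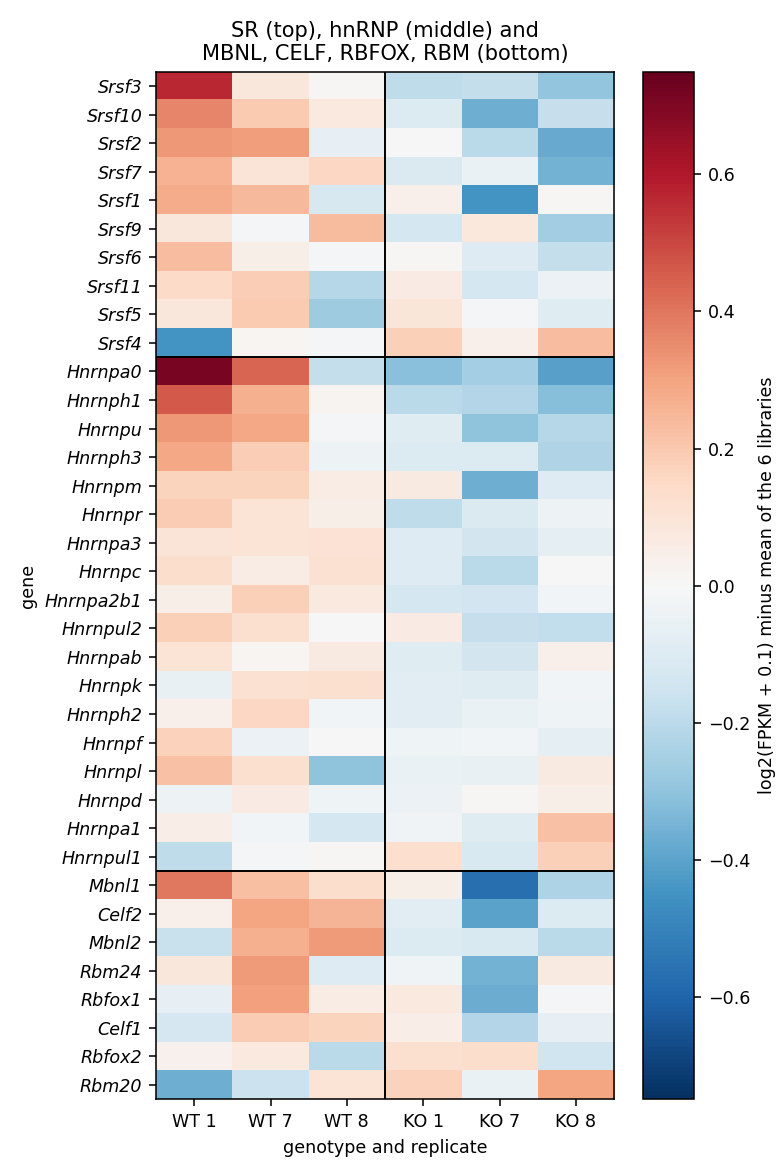
Heat map of 36 splicing regulator genes (rows, in 3 blocks by family) in the 6 libraries (columns). Color shows log2(FPKM + 0.1) minus the gene's mean over the 6 libraries, red above and blue below; most rows are red in WT 1 and WT 7 and blue in the KO libraries, and WT 8 lies between.

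The plot of deviations by library showed how evenly the difference was spread. The deviation of a gene is its log2 level in a library minus its mean over the 6 libraries, and its median over the 36 genes was 0.12, 0.14 and 0.01 in WT replicates 1, 7 and 8, and -0.04, -0.13 and -0.07 in KO replicates 1, 7 and 8. The genotypes did not overlap in this median, and WT replicate 8 stood nearest to the KO libraries. It was the lowest of the 3 WT libraries for 20 of the 36 genes, and WT replicate 1 was the highest for 18. KO replicate 7 was the lowest of the KO libraries for 20. Taken by family, the median deviations did not overlap between the genotypes for the hnRNP genes, and overlapped for the SR genes and for the MBNL, CELF, RBFOX and RBM genes. The spread among mice was modest, with a median coefficient of variation over the 36 genes of 9.72% in WT and 7.07% in KO.

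Some differences of the whole libraries moved with genotype. *Kcnab2*, which encodes Kvβ2, was at 0.233, 0.10 and 0.110 FPKM in WT and at 0, 0.0151 and 0 FPKM in KO, lower in every KO library although at levels that rest on few fragments (p = 0.1 in a two-sided exact permutation test, which 3 against 3 mice cannot go below). The fragments per library, estimated from the steps between low FPKM values, numbered 19240000 to 20140000 in WT and 13960000 to 18150000 in KO. The summed FPKM of 10 skeletal muscle markers was 12773 to 20432 in WT and 25811 to 28864 in KO. Most of it was *Acta1* (5029 to 9656 FPKM in WT, 12044.5 to 13917 FPKM in KO) and *Ckm* (2675 to 6307 FPKM in WT, 7203 to 7971 FPKM in KO). *Actn3*, *Mb*, *Myh1* and *Myh7* overlapped between the genotypes. At an unadjusted p under 0.05, 5 of 9 tested markers were higher, against 15.3% of all tested genes. *Myh4* was listed at 0 in all 6 libraries, and *Ttn*, 1 of the 5 higher, was listed at 0 in all 3 WT libraries. The summed level of the 3 blood markers found, of 5 listed, was also higher in every KO library (64.9 to 98.2 in WT, 113 to 228 in KO). Most of that sum was *Hba-a1* and *Hba-a2*. *Alas2* overlapped between the genotypes (3.15 to 3.86 FPKM in WT, 3.16 to 4.50 FPKM in KO). The sum of 4 satellite cell markers was higher in every KO library too (2.39 to 4.76 in WT, 4.94 to 5.43 in KO). Most of it was *Cdh15* (1.59 to 3.74 FPKM in WT, 3.90 to 4.44 FPKM in KO), while *Pax7* and *Calcr* overlapped between the genotypes. The sums of endothelial, fibroblast, macrophage, adipocyte and Schwann cell markers overlapped, although 3 of 4 adipocyte markers were higher in KO at an unadjusted p under 0.05. KO replicate 7, the lowest KO library for 20 of the 36 splicing regulators, stood apart with an adipocyte sum of 78.5, against 16.5 and 19.8 in the other KO libraries and 3.43 to 17.03 in WT. Its Schwann cell sum was 82.8, against 13.4 and 29.4 in KO and 12.1 to 59.6 in WT. FPKM divides by the library's total of fragments, which is not the sum of its FPKM. The 37 splicing regulators held 0.327% to 0.375% of the summed FPKM in WT and 0.260% to 0.269% in KO. That sum was 382780 to 432353 in WT and 431414 to 477356 in KO, so the shares moved with it as well as with the members. The part of these shifts in the levels of the splicing regulators was not tested, and in bulk muscle fewer cells of a type and less RNA per cell cannot be told apart.

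Among SR genes, 4 of the 10 tested were lower in KO at an unadjusted p under 0.05 and 0 higher. Over all tested genes 10.9% were lower and 15.3% higher. In the SR family 9 log2 fold changes were negative, and the median was -0.24. *Srsf10* (ENSMUSG00000028676, chr4:135855747-135869908), an SR protein that represses splicing when it is dephosphorylated, measured 14.6 FPKM in WT replicate 1, 13.0 in replicate 7 and 11.97 in replicate 8, against 10.6, 8.80 and 10.1 FPKM in the KO replicates in the same order. No KO library reached the lowest WT library, and the KO mean was 0.744 of the WT mean. The log2 fold change was -0.42 (SE 0.13, adjusted p = 0.106, limma).

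*Srsf3* (ENSMUSG00000071172, chr17:29032628-29043373) and *Srsf7* (ENSMUSG00000024097, chr17:80200080-80207307) encode close relatives that also take part in mRNA export and polyadenylation site choice. *Srsf3* was at 42.7, 30.7 and 29.1 FPKM in WT and at 25.3, 25.5 and 23.5 FPKM in KO, a log2 fold change of -0.44 (SE 0.16, adjusted p = 0.146, limma). WT replicate 1 stood high, and the KO libraries were close together and below all WT libraries. *Srsf7* was at 18.5, 16.5 and 17.1 FPKM in WT and at 14.3, 14.9 and 12.03 FPKM in KO, again without overlap (log2 fold change -0.34, SE 0.12, adjusted p = 0.143, limma). *Srsf2* (ENSMUSG00000034120, chr11:116849901-116853094), a classical SR protein also known as SC35, was at 43.6, 43.2 and 33.3 FPKM in WT and at 34.9, 30.2 and 26.7 FPKM in KO. WT replicate 8 lay under KO replicate 1, and the log2 fold change was -0.38 (SE 0.15, adjusted p = 0.168, limma). An entry listed as *Srsf2.1* (ENSMUSG00000093603) lies outside the rule and had overlapping values, 35.9, 20.3 and 15.4 FPKM in WT and 18.9, 10.5 and 19.7 FPKM in KO.

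*Srsf5* and *Srsf1* had the highest levels of the SR genes. *Srsf5* (ENSMUSG00000021134, chr12:80945504-80950507) was at 71.0, 76.6 and 55.7 FPKM in WT and at 71.2, 66.1 and 62.8 FPKM in KO. The genotypes overlapped, and the 95% confidence interval of its log2 fold change of -0.01 ran from -0.34 to 0.32. *Srsf1* (ENSMUSG00000018379, chr11:88047373-88053755), the founding member also known as SF2/ASF, was at 54.3, 53.0 and 41.1 FPKM in WT and at 45.97, 32.8 and 45.1 FPKM in KO, with overlap and a log2 fold change of -0.26 (interval -0.67 to 0.14). *Srsf4* (ENSMUSG00000028911, chr4:131873617-131901706) was the exception in direction, at 4.21, 5.84 and 5.75 FPKM in WT and 6.57, 5.94 and 6.83 FPKM in KO. Its log2 fold change was 0.30 (SE 0.16, adjusted p = 0.262, limma), and a transcript annotated on the other strand, *Gm12992*, shares 43.0% of its exonic bases. *Srsf12* did not pass the filter and was listed at 0 in every library except KO replicate 8, at 0.0922 FPKM.

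**Figure D2:**
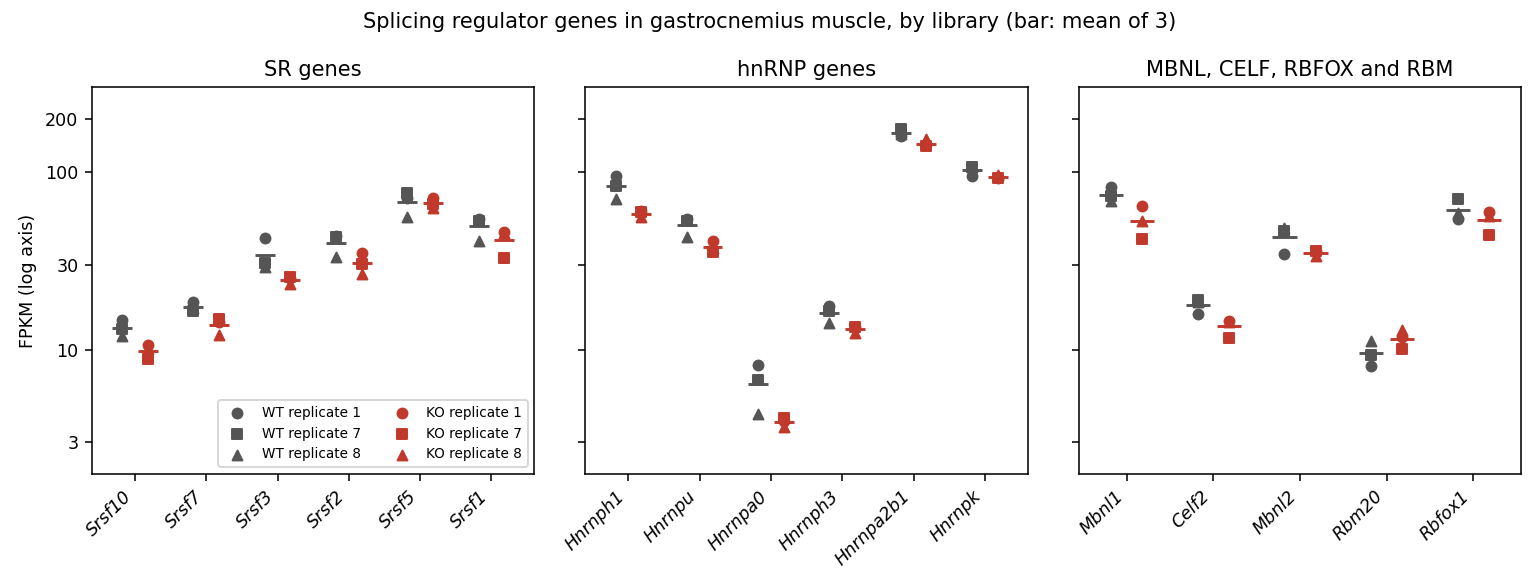
FPKM (log axis) of the splicing regulators described in full, in WT (grey) and KO (red) libraries, with the marker shape giving the replicate number and a bar the mean of 3. The KO points lie under all WT points for Srsf10, Srsf7, Srsf3, Hnrnph1, Hnrnpu, Hnrnpa0, Hnrnph3, Hnrnpa2b1, Mbnl1 and Celf2, and overlap with them for the other genes shown.

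Among hnRNP genes, 4 of 18 were lower at an unadjusted p under 0.05, against 10.9% of all tested genes, and 0 higher, against 15.3%. Of their log2 fold changes 15 were negative, and the median was -0.20. In 9 of 18 every KO library lay under every WT library, against 16.2% of all tested genes. *Hnrnph1* (ENSMUSG00000007850, chr11:50376990-50386528), which binds G-rich runs near splice sites, was at 95.2, 83.2 and 70.1 FPKM in WT and at 60.2, 59.3 and 55.5 FPKM in KO. The KO mean was 0.704 of the WT mean, with no overlap, and the log2 fold change was -0.50 (SE 0.13). *Hnrnph3* (ENSMUSG00000020069, chr10:63014664-63024217), a relative of *Hnrnph1*, was at 17.6, 16.4 and 14.04 FPKM in WT and at 13.5, 13.4 and 12.4 FPKM in KO (log2 fold change -0.29, SE 0.12, adjusted p = 0.187, limma). *Hnrnpu* (ENSMUSG00000039630, chr1:178321108-178337797), also a scaffold attachment factor of chromatin, was at 54.6, 53.1 and 43.1 FPKM in WT and at 40.9, 35.3 and 37.5 FPKM in KO (log2 fold change -0.40, SE 0.13, adjusted p = 0.116, limma). In both of these genes the KO libraries lay under the WT libraries, and WT replicate 8 was the WT library closest to them.

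*Hnrnpa0* (ENSMUSG00000007836, chr13:58125879-58128556) encodes an AU-rich element binding protein of the A/B type, and had the lowest mean level and the most negative log2 fold change of the 36 genes. It was at 8.14, 6.71 and 4.34 FPKM in WT and at 3.95, 4.11 and 3.69 FPKM in KO. The KO libraries were close together, whereas the WT libraries spread widely, with WT replicate 8 just above the KO libraries. The log2 fold change was -0.65 (SE 0.22, adjusted p = 0.134, limma). It has 1 annotated transcript of 2678 bases, on which these levels correspond to about 422, 346 and 234 fragments in WT and 148, 200 and 149 fragments in KO.

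*Hnrnpa2b1* and *Hnrnpk* had the highest levels of the hnRNP genes. *Hnrnpa2b1* (ENSMUSG00000004980, chr6:51460932-51469894), whose products bind RNA in the nucleus and in transport granules, was at 159.5, 175 and 163 FPKM in WT and at 141, 140.1 and 153 FPKM in KO. These did not overlap, and the log2 fold change was -0.20 (95% confidence interval -0.43 to 0.03, adjusted p = 0.241, limma). *Hnrnpk* (ENSMUSG00000021546, chr13:58391142-58403343), a poly(C)-binding KH domain protein, was at 94.5, 106 and 107 FPKM in WT and at 92.8, 92.2 and 96.8 FPKM in KO, with a log2 fold change of -0.12 (interval -0.36 to 0.11). The smallest spread among WT mice was that of *Hnrnpa3*, at 56.6 ± 0.260 FPKM in WT and 49.2 ± 1.25 FPKM in KO (SD, n = 3 each), with no overlap and a log2 fold change of -0.20 (SE 0.09). Positive log2 fold changes were measured for *Hnrnpul1* (0.13), *Hnrnpa1* (0.07) and *Hnrnpd* (0.01), each with overlapping genotypes.

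The promoters of the splicing regulators were read from RefSeq (GRCm38.p6) as windows of 300 bases, 250 before and 50 after the start of transcription, which were found for 34 of the 37 genes. They held a median of 32 CpG dinucleotides per gene (7 to 52), against 8 over 27025 genes, with the highest count taken where a gene had several windows. The 27025 are all genes with a window, whether or not muscle expresses them. A comparison with expressed genes alone was not made. A GC box (GGGCGG, on either strand) was found in 79.4% of the 34 and in 38.2% of all genes, a cAMP response element half-site (TGACG) in 58.8% and 23.0%, a CCAAT box (CCAAT) in 55.9% and 41.1%, and an ETS site (CCGGAAGT) in 14.7% and 4.31%. Each motif was searched on both strands of every window of a gene and counted on its own. GC boxes and CpG counts are linked because the box holds a CpG. The windows of 4 genes that reached an unadjusted p under 0.05 are printed 5′ to 3′ on the strand of the gene, with the matches in capitals, none of which overlap. They show the CpG-rich sequence that these genes have in common. *Srsf10* is chr4:135855821-135856120 on the plus strand, *Srsf7* chr17:80207256-80207555 on the minus strand, *Srsf3* chr17:29032410-29032709 on the plus strand and *Hnrnpa0* chr13:58128507-58128806 on the minus strand. The *Srsf10* window lies inside the gene as given above, which begins at chr4:135855747, so the RefSeq start used lies downstream of that gene start.
Srsf10: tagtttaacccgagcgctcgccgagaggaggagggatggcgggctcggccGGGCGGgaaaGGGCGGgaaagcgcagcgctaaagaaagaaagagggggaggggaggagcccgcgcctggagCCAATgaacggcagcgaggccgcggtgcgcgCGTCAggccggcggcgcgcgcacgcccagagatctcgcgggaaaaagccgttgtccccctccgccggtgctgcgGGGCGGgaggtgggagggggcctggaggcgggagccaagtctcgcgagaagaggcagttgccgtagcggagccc
Srsf7: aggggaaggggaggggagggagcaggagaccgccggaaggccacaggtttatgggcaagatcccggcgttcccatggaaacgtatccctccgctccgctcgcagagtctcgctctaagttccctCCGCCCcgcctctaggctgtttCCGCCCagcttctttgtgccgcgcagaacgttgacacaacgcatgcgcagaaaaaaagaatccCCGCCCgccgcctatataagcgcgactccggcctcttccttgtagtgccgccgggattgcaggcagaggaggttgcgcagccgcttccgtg
Srsf3: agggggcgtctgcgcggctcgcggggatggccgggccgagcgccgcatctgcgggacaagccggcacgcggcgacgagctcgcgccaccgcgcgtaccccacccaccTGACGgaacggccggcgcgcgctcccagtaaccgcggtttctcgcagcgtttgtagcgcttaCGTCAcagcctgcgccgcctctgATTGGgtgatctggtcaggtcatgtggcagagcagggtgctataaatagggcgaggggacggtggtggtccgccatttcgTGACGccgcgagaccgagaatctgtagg
Hnrnpa0: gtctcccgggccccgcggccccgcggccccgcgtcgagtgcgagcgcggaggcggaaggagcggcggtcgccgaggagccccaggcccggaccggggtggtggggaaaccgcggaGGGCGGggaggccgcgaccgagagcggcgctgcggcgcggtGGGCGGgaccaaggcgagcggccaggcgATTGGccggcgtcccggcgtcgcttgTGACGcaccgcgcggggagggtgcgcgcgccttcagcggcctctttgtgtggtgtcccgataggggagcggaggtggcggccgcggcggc
*Srsf10* holds 3 GC boxes, 1 CCAAT box and 1 CRE half-site, *Srsf7* 3 GC boxes in the reverse orientation, *Srsf3* 3 CRE half-sites and 1 CCAAT box, and *Hnrnpa0* 2 GC boxes, 1 CCAAT box and 1 CRE half-site. A match says only that the letters are present.

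Of the 8 MBNL, CELF, RBFOX and RBM genes, 2 were lower at an unadjusted p under 0.05 and 0 higher. Over all tested genes 10.9% were lower and 15.3% higher. In this family 6 log2 fold changes were negative, and the median was -0.21. *Mbnl1* (ENSMUSG00000027763, chr3:60472830-60629750), the main MBNL protein of adult muscle, was at 82.0, 73.1 and 68.3 FPKM in WT and at 64.3, 42.1 and 53.2 FPKM in KO. There was no overlap, KO replicate 7 was the lowest, and the KO mean was 0.714 of the WT mean (log2 fold change -0.50, SE 0.17, adjusted p = 0.126, limma). *Celf2* (ENSMUSG00000002107, chr2:6539694-7509563), of the family that opposes MBNL on many exons, was at 15.9, 18.9 and 18.4 FPKM in WT and at 14.5, 11.7 and 14.4 FPKM in KO (log2 fold change -0.39, SE 0.13, adjusted p = 0.132, limma). KO replicate 7 was again the lowest library, and WT replicate 1 was the WT library nearest to KO.

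*Mbnl2* (ENSMUSG00000022139, chr14:120275669-120431697) was at 34.5, 46.6 and 48.4 FPKM in WT and at 36.04, 35.8 and 33.7 FPKM in KO, with WT replicate 1 inside the KO range and a log2 fold change of -0.28 (95% confidence interval -0.62 to 0.06). *Rbfox1* (ENSMUSG00000008658, chr16:5885355-7411526), which in muscle exceeded *Rbfox2* in every library, was at 54.4, 70.4 and 59.0 FPKM in WT and at 59.6, 43.9 and 56.5 FPKM in KO. The genotypes overlapped (log2 fold change -0.20, interval -0.57 to 0.16). *Rbm20* (ENSMUSG00000043639, chr19:53677306-53867080), the repressor of titin exons, was at 8.06, 9.31 and 11.2 FPKM in WT and at 11.7, 10.02 and 12.8 FPKM in KO, with overlap and a log2 fold change of 0.28 (interval -0.09 to 0.65). The titin gene *Ttn* was listed at 0 in all 3 WT libraries and at 188, 151 and 189.8 FPKM in KO, and for a gene that muscle fibers express strongly a listed 0 can be a failed estimate. *Rbm24*, *Celf1* and *Rbfox2* had log2 fold changes of -0.21, -0.15 and 0.07 and overlapping genotypes.

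**Figure D3:**
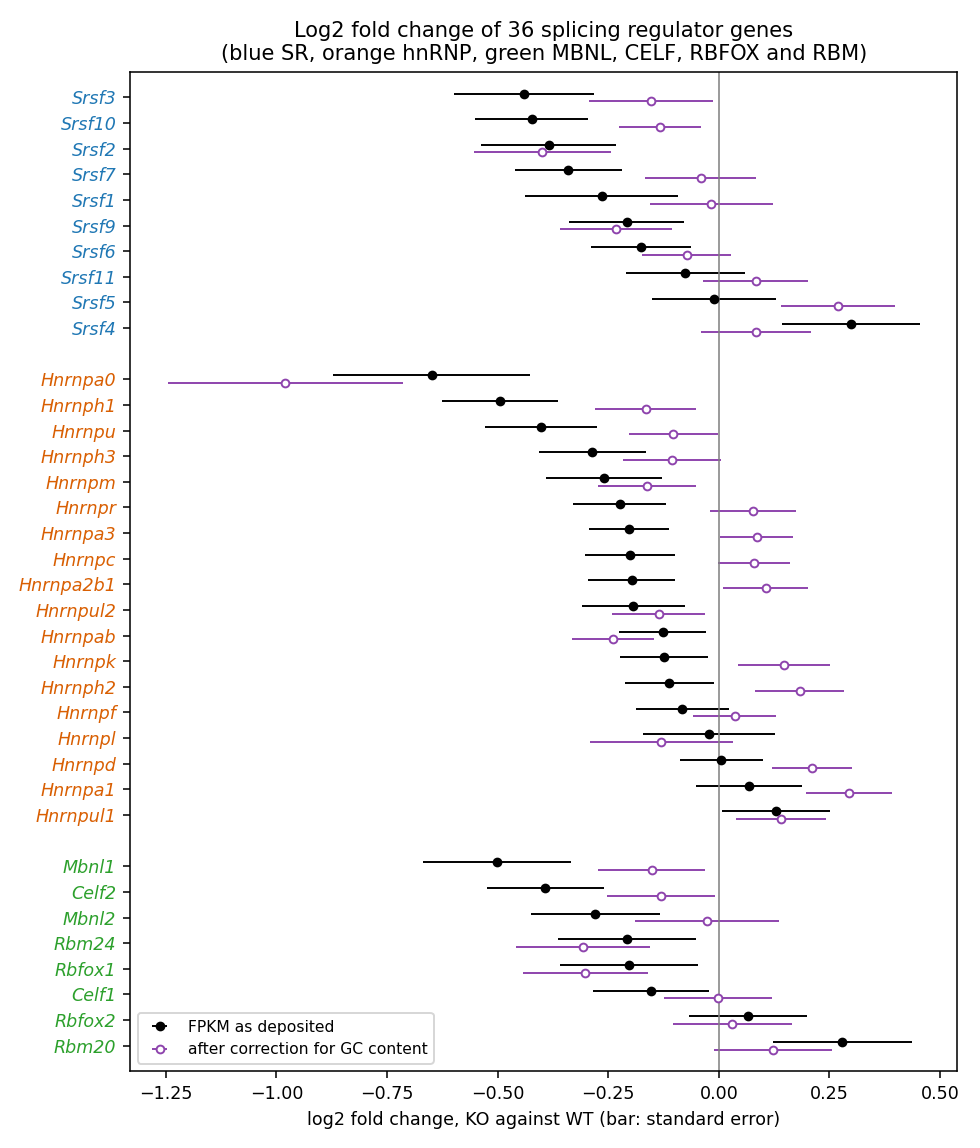
Log2 fold changes of KO against WT with standard errors (bars) for 36 splicing regulator genes, from FPKM as deposited (filled) and after correction for GC content (open), grouped by family and sorted within it. As deposited 30 points lie left of 0, and after the correction 21 do.

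The GC content of the transcripts moved with these fold changes. Over the 11985 tested genes with a known GC content, the log2 fold change was higher where GC content was higher (across genes, Spearman's rho 0.70, Pearson's r 0.43), and over the 36 splicing regulators rho was 0.41 and r 0.36; genes of 1 library share its preparation and are not independent. The splicing regulators had a median GC content of 45.4%, and all tested genes 50.1%. Of 19 members under 46% GC, 17 had a negative log2 fold change, 8 reached an unadjusted p under 0.05 and the median was -0.26. Of the 17 others, 13 were negative, 2 reached that p and the median was -0.15. All members that reached it were lower in KO, and over all tested genes of any GC content 10.9% were lower at that p. The share among tested genes under 46% GC was not counted, so the 8 of 19 have no comparison at a like GC content. For a correction, the deviations of a library from the gene means were fitted with a loess curve against GC content, and the curve was subtracted.

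**Figure D4:**
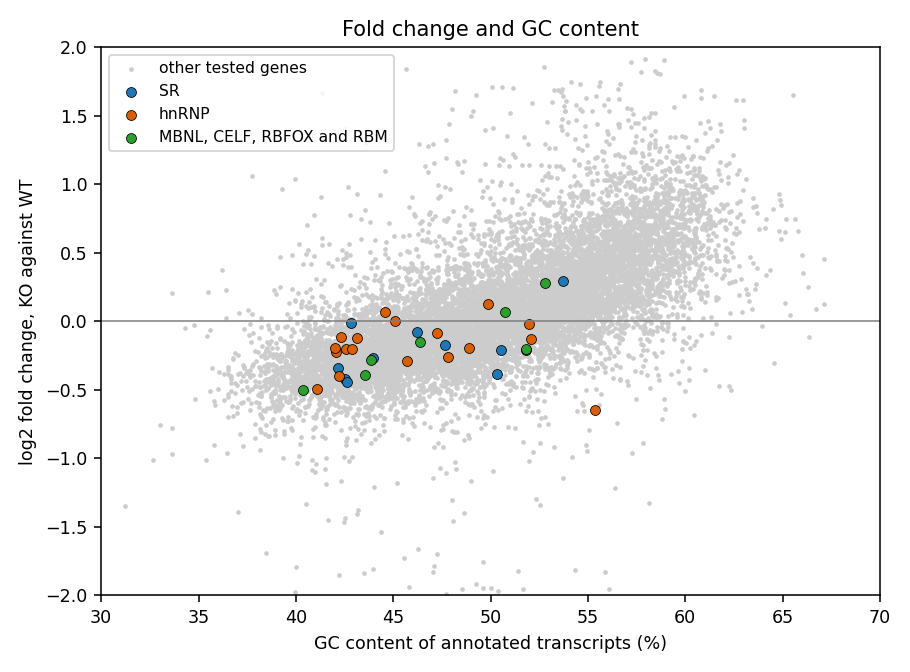
Log2 fold change of KO against WT (vertical axis) and GC content of the annotated transcripts in percent (horizontal axis) of each tested gene (grey) and of the splicing regulators (colored by family). Fold changes are higher at higher GC content, most splicing regulators sit in the GC-poor and negative part, Hnrnpa0 lies below most genes of its GC content, and 147 of 11985 genes fall outside the axes.

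After the correction the splicing regulators lay closer to WT. The median log2 fold change of the 36 genes was -0.03, with 21 negative and 15 positive, and by family it was -0.06 for SR, 0.06 for hnRNP and -0.08 for MBNL, CELF, RBFOX and RBM genes. At an unadjusted p under 0.05, 3 were lower, against 5.47% of all genes corrected, and 1 was higher, against 5.72%, and 0 were called. The median deviations of the libraries overlapped between the genotypes in every family. *Hnrnpa0*, at 55.4% GC, moved away from 0, to a log2 fold change of -0.98 (SE 0.27, adjusted p = 0.288, limma). *Srsf2*, at 50.4% GC, stayed at -0.40 (SE 0.15, adjusted p = 0.409, limma), and *Hnrnpab*, an A/B type hnRNP at 52.1% GC, was at -0.24 (SE 0.09, adjusted p = 0.409, limma). *Hnrnpa1*, the classical antagonist of SRSF1 in splice site choice, was the one that was higher, at 0.29 (SE 0.10, adjusted p = 0.356, limma). *Hnrnph1*, *Mbnl1*, *Srsf10* and *Hnrnpu*, with 40.3% to 42.5% GC, came to -0.17, -0.15, -0.13 and -0.10. Whether the relation with GC content arose in the muscles or in library preparation was not tested.

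Ratios of related genes within a library do not depend on its total. Of 9 pairs chosen by relatedness, the ratio was higher in every KO library in 4 pairs, lower in 1 and overlapping in 4. Higher or lower depends here on which gene is written first, and non-overlap was not counted over other pairs of genes. *Hnrnph1* was 4.28 ± 0.625 times *Hnrnph2* in WT and 3.27 ± 0.195 times in KO (SD, n = 3 each). The members of this pair differ little in GC content, 41.1% and 42.3%, and the log2 ratio in KO minus that in WT was -0.38 as deposited and -0.35 after the GC correction. *Celf1* was 1.34 ± 0.0374 times *Celf2* in WT and 1.58 ± 0.0786 times in KO, *Hnrnpul1* was 1.04 ± 0.137 times *Hnrnpul2* in WT and 1.30 ± 0.160 times in KO, and *Hnrnpa1* was 0.268 ± 0.0230 times *Hnrnpa2b1* in WT and 0.322 ± 0.0219 times in KO. In the remaining pair with a higher ratio, *Srsf4* was 0.209 ± 0.0518 times *Srsf6* in WT and 0.287 ± 0.0317 times in KO. With the GC correction the log2 ratio in KO minus that in WT went from 0.48 to 0.16 for *Srsf4* and *Srsf6*, whose GC contents are 53.7% and 47.7%, and from 0.24 to 0.13 for *Celf1* and *Celf2*. It went from 0.32 to 0.28 for *Hnrnpul1* and *Hnrnpul2* and from 0.27 to 0.19 for *Hnrnpa1* and *Hnrnpa2b1*. The pairs were chosen with the values known, so these ratios are a description with no test. The ratio of *Mbnl1* to *Mbnl2* overlapped, at 1.79 ± 0.518 in WT and 1.51 ± 0.309 in KO.

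**Figure D5:**
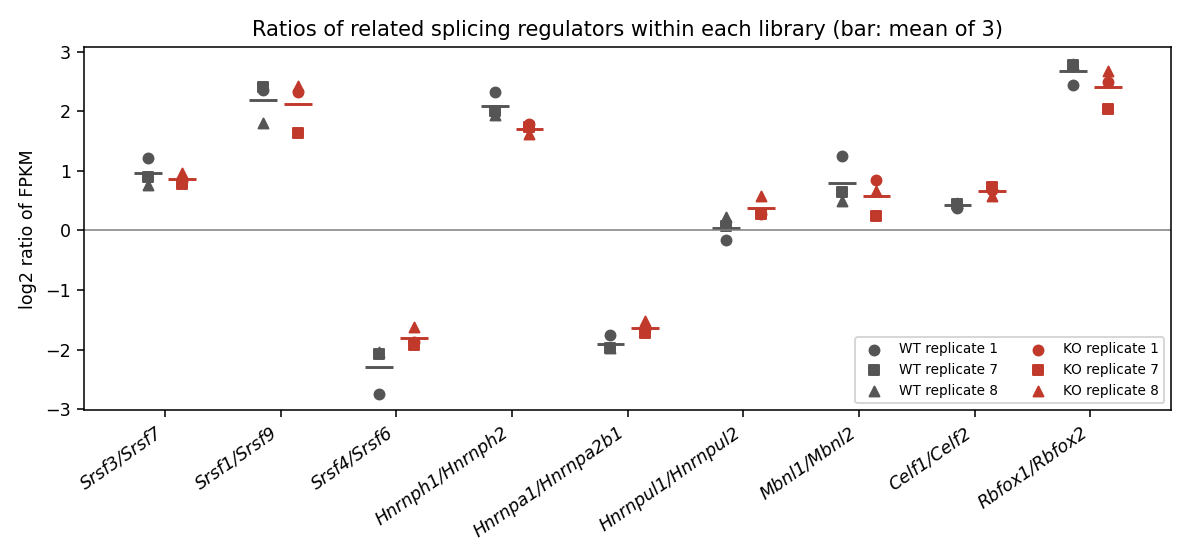
Log2 ratio of FPKM between related splicing regulators within each library, WT in grey and KO in red, with bars for the mean of 3. WT and KO points separate for Srsf4/Srsf6, Hnrnph1/Hnrnph2, Hnrnpa1/Hnrnpa2b1, Hnrnpul1/Hnrnpul2 and Celf1/Celf2, and overlap for the other 4 pairs.

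The 36 genes were expressed well above the typical gene, with a median of their mean levels of 31.0 FPKM, against 4.99 FPKM for all tested genes. *Hnrnpa2b1* was the highest at 155 FPKM over the 6 libraries, followed by *Hnrnpk* (98.2), *Hnrnph1* (70.6), *Srsf5* (67.2), *Mbnl1* (63.8) and *Rbfox1* (57.3), and the lowest were *Srsf4* (5.86) and *Hnrnpa0* (5.15). *Hnrnpa2b1* lay above the other members in every library, whereas *Hnrnpk* and *Hnrnph1* overlapped in WT, and *Hnrnph1*, *Srsf5*, *Mbnl1* and *Rbfox1* each overlapped with the next in that order in WT. The annotation (GENCODE vM21) lists a transcript subject to nonsense-mediated decay for 9 of the 10 tested SR genes and for 8 of the 18 hnRNP genes and 2 of the 8 MBNL, CELF, RBFOX and RBM genes, and over all tested protein-coding genes for 29.3%. The median number of annotated transcripts was 9.5 for the 36 members and 5 for those coding genes. FPKM per gene do not separate such transcripts from coding ones, so the share of poison exons was not measured. Exons of 13 members overlap genes annotated on the opposite strand, the largest being *Gm12992* in *Srsf4*, *Phykpl* in 29.1% of the exonic bases of *Hnrnpab*, and *Mettl23* in 15.6% of those of *Srsf2*, and the strand setting of the counting was not given in the sources used here. Exons of 3 members overlap genes on the same strand. These are *March2* in 14.7% of the exonic bases of *Hnrnpm*, *AC129217.1* in 5.06% of those of *Hnrnpul2* and *Gm24574* in 1.06% of those of *Hnrnpa3*.

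The rest of the splicing machinery, in 7 lists with 101 tested genes, had 0 genes called. At an unadjusted p under 0.05, 16 (15.8%) were lower, against 10.9% of all tested genes, and 14 (13.9%) higher, against 15.3%. After the GC correction 2 were lower, against 5.47% of all genes corrected, and 7 higher, against 5.72%. The core Sm and snRNP proteins had 3 of 18 lower and 2 higher, the latter being *Snrpb* (log2 fold change 0.45, adjusted p = 0.0750, limma) and *Snrnp25* (0.72, adjusted p = 0.0785, limma). Factors of the branch point and the 3′ splice site had 0 of 13 lower and 4 higher, among them *U2af2*, the large U2AF subunit, at 0.48 (adjusted p = 0.0750, limma) and *Sf3a2* at 0.81 (adjusted p = 0.0962, limma). Of 12 PRP proteins 2 were lower and 0 higher, *Prpf38a* at -0.38 and *Prpf39* at -0.39. These values were nearer to 0 after the GC correction, at 0.12 for *Snrpb*, 0.37 for *Snrnp25*, 0.14 for *U2af2*, 0.22 for *Sf3a2* and -0.03 for *Prpf38a*. *Prpf39* changed sign, to 0.06. The remaining higher genes of the branch point list moved in opposite ways. *Sf3b5* went from 0.63 to 0.81 (adjusted p = 0.272, limma) and *Sf3b4* from 0.48 to 0.09.

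Among 8 kinases of SR proteins 1 was higher, the muscle-enriched *Srpk3* (15.2, 18.4 and 18.5 FPKM in WT, 22.2, 22.6 and 23.9 FPKM in KO, log2 fold change 0.40, adjusted p = 0.101, limma), and 1 lower, *Prpf4b* at -0.32. SR-related proteins had 3 of 16 lower and 2 higher, *Sfswap* at 0.45 and *Scaf1* at 0.57, and factors of nonsense-mediated decay had 2 of 8 lower, with *Smg1* at -0.35, and 2 higher, with *Smg6* at 0.42. Other RNA-binding regulators had 5 of 26 lower and 3 higher. The counts of these lists are at an unadjusted p under 0.05, at which 10.9% of all tested genes were lower and 15.3% higher. *Rbm38*, an RNA-binding protein of muscle differentiation, was at 9.93, 16.1 and 24.5 FPKM in WT and at 44.3, 53.4 and 51.1 FPKM in KO, and missed the threshold with an adjusted p of 0.0667 (log2 fold change 1.64, SE 0.29, and 0.96 after the GC correction). *Ptbp1*, the polypyrimidine tract repressor, was at 0.73 (adjusted p = 0.0864, limma). After the GC correction *Scaf1*, at 60.5% GC, changed sign, to -0.07, and the others named here were at 0.13 for *Srpk3*, -0.02 for *Prpf4b*, 0.28 for *Sfswap*, -0.13 for *Smg1*, 0.35 for *Smg6* and 0.40 for *Ptbp1*. *Hnrpll* (ENSMUSG00000024095), an hnRNP-like gene whose symbol lies outside the rule, was at 7.72, 7.78 and 7.46 FPKM in WT and at 5.66, 5.13 and 6.29 FPKM in KO, with no overlap (log2 fold change -0.42, adjusted p = 0.0962, limma), and *Hnrpdl* overlapped at -0.25. After the GC correction they were at -0.17 and -0.07.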

How the data were processed

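Total RNA of GAS muscle from 3 WT and 3 KO mice was made into stranded mRNA libraries, per the labels, and sequenced in pairs of reads. According to the submitters' processing notes and the paper's methods, the authors aligned the reads with TopHat to the GRCm38 genome and derived the deposited FPKM per gene with Cufflinks. Versions, the annotation release and the strand setting were not given in the sources used here. The labels name no batch and do not say that equal numbers pair the mice.

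Reads and counts were not used here. FPKM were tested as log2(FPKM + 0.1) with limma 3.58.1 in R 4.3.3, letting the prior variance follow the mean level, on 12334 genes that averaged 0.5 FPKM or more, with Benjamini-Hochberg adjustment of p over these genes. Single values were compared by exact permutation tests, two-sided. GC content was averaged over a gene's transcripts, weighted by length, from GENCODE vM21 (GRCm38). All 37 members and 32935 of 37979 identifiers matched it, and 97.2% of tested genes had a value. The loess curves had a span of 0.3. Promoter windows came from RefSeq (GRCm38.p6). Figures and summaries were made in Python 3.11.15 with scipy 1.17.1 and matplotlib 3.10.9. The limma step was tested on simulated data with changes larger than those of any member, so the test does not measure sensitivity at their size.

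Library sizes were estimated from genes with a single annotated transcript, 1500 to 6000 bases long. Their low FPKM, up to 6 fragments, were multiples of 1 fragment for 88.3% to 91.8% of values at a tolerance of 0.15. For a transcript of 1 kilobase, 1 fragment then equals 0.0497 to 0.0716 FPKM. Over 14983 genes above 0 in all libraries, at most 1 value was the same in any pair of libraries.

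The members, the other lists of splicing genes and the pairs were chosen with earlier results of these data known. Values in every library were given, in each family, for the 4 members with the lowest unadjusted p, the 2 with the highest mean and any listed at 0; in each other list the 2 genes with the lowest unadjusted p were named. *Srsf4*, *Hnrnpa3*, *Sf3b5*, *Sf3b4* and the members named after the GC correction were chosen after their values were seen. Of 108 symbols in the other lists, 6 were not analysed here, and the others made 103 entries of the table, since a symbol can stand for more than 1 entry. Alternatives covered the pseudocount, the filter, scaling, variance model, library weights, a replicate block, corrections for GC content and length, and leaving out each library.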

Additional observations from a re-analysis of the deposited data

How the results depend on the processing

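With FPKM from 3 mice a genotype and no counts, small differences are limited by the spread among mice. Of the 684 log2 fold changes of the members under the alternatives, 640 kept their direction and their side of the threshold, 32 changed sign and 12 passed the threshold, all of the latter with limma's array weights, which down-weight libraries. The cause of each change was not tested.

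Genes called higher over the whole table numbered 31, and 7 with a pseudocount of 1, 9 with no filter, 20 with equal medians, 11 with quantile normalisation, 12 with no variance trend, 1863 with array weights, 6 with the replicate block, 6 with the GC correction, 5 with both, 19 with the length correction, 1 among genes above 0 in every library, and 6 to 103 (the latter without WT replicate 8) with a library left out. Genes called lower numbered 9, and 4, 1284 and 0 with a pseudocount of 1, array weights and genes above 0 in every library, and 6 to 23 (without WT replicate 8) with a library left out. At an unadjusted p under 0.05, 1891 were higher, and 686 with the GC correction and 610 with the replicate block added to it. Lower were 1339, and 2316 with array weights, 656 with the GC correction, 535 with the block added, and 763 (without WT replicate 7) to 1326 with a library left out.

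Of the 36 splicing regulators tested, 0 were called, and 12 with array weights, where 1863 of 12334 genes were called higher and 1284 lower. Splicing regulators lower at an unadjusted p under 0.05 numbered 10, and 16 with equal medians, 19 with array weights, 3 with the GC correction, 2 with the block added, and 5 to 10 with a library left out. Genes of the whole table that were lower numbered 1339, and 1785, 2316, 656 and 535 in the same order. With a library left out they numbered 763 to 1326. Splicing regulators higher at that p numbered 0, and 1 with array weights, 1 with the GC correction, 1 with the block added and 0 to 1 (without WT replicate 8) with a library left out. Genes of the whole table that were higher numbered 1891, and 2777, 686 and 610 in the same order, and 1922 without WT replicate 8. The median log2 fold change of the SR genes was -0.24, and -0.0572 with the GC correction, with or without the block, and that of the hnRNP genes was -0.20, and 0.0564 with it in both fits. Of the other splicing lists 0 genes were called, and 21 with array weights and 0 to 1 (without WT replicate 8) with a library left out. Lower at an unadjusted p under 0.05 were 16, and 8 with no variance trend and 9 with the replicate block. Over all tested genes 1339 were lower, and 1223 and 1030 in the same order. With the GC correction 2 genes of these lists were lower, and 2 with the block added, against 656 and 535 of all genes corrected. With a library left out 4 (without WT replicate 1 or 7) to 16 genes of these lists were lower. Over all tested genes 1060 were lower without WT replicate 1 and 763 without WT replicate 7. Genes of these lists that were higher numbered 14, and 7 with the GC correction and 5 with the block added. Over all genes 1891, 686 and 610 were higher in the same order.

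Single genes that changed sign under the GC correction, with or without the block, were *Srsf5* (0.27), *Hnrnph2* (0.18), *Hnrnpk* (0.15), *Hnrnpa2b1* (0.11), *Hnrnpa3* (0.0851), *Srsf11* (0.0832), *Hnrnpr* (0.0774), *Hnrnpc* (0.0787) and *Hnrnpf* (0.0354). *Srsf5* was at 0.0110 with quantile normalisation, *Hnrnpd* at -0.0424 with equal medians and -0.0293 with array weights, and *Rbfox2* at -0.0934 with array weights. With a library left out the log2 fold change ran from -0.15 to 0.0832 for *Srsf5*, -0.18 to 0.0816 for *Hnrnpl*, -0.0247 to 0.13 for *Hnrnpa1*, -0.0138 to 0.0385 for *Hnrnpd* and -0.0190 to 0.16 for *Rbfox2*. The labels do not say that a replicate number pairs mice, and libraries with the same number did not deviate together (correlations of -0.03, -0.08 and 0.03 over genes). The replicate block called 0 of the splicing regulators.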
